A study of Mus musculus with 10 samples.

Results

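Genes of the interleukin and chemokine system were taken by symbol from a table of H3K4me2 and H3K27me3 occupancy at gene starts in the maturing mouse retina. The symbols were those that begin with Il, Ccl, Cxcl, Ccr or Cxcr followed by a number, and the entry with the largest total over all libraries stood for a symbol that had several. This gave 136 of the 20045 symbols in the table, and 22 of the 136 had more than 1 entry. They were 40 interleukin ligands, 42 interleukin receptors and binding proteins, 35 chemokine ligands and 18 chemokine receptors. The remaining member was Il4i1, an amino acid oxidase that is neither ligand nor receptor, with H3K4me2 of 7, 9, 1 and 6 and H3K27me3 of 22, 20, 18 and 23. Here and throughout, 4 values in a row stand for E17.5 (embryonic day), PN1, PN7 and PN15 (postnatal days) in this order.

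Each library came from a pool of retinas of a given stage, and there was 1 library for each mark and stage. The labels give the age of the embryos as E17 in the titles and E17.5 in the protocol, and in the table the PN7 column of H3K27me3 is headed with an added b. The antibody field gives the same pair of catalogue numbers for both marks, in opposite places, so the mark of a library was taken from its title and column heading. The strain field of every library reads Pde6b (rd1/rd1), a mutant that loses its rods, whereas the methods of the study give C57BL/6j wild type mice for these stages and rd1/rd1 mice for a separate control without rods. An rd1/rd1 library and an anti-GFP control library had no column and were not analysed here. No condition was replicated, so a difference between stages is a difference between 2 libraries, and no test or p-value is given. In whole retina, fewer cells that carry a mark and less of the mark in each cell cannot be told apart. The rod genes Nrl, Nr2e3, Gnat1, Pde6b and Sag had H3K4me2 between 9 and 35 at E17.5 and between 53 and 116 at PN15.

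Interleukins and chemokines are secreted proteins through which immune cells, glia and vessels signal to each other. Interleukins bind receptor chains that recruit Janus kinases or adaptors of the interleukin 1 receptor family, and chemokines bind G protein-coupled receptors that steer cell migration. In the retina microglia are the resident immune cells, while astrocytes, Mueller glia and neurons also use some of these genes, such as Cxcl12 and its receptor Cxcr4 in the guidance of growing axons and vessels. H3K4me2 marks the starts of active and poised genes, H3K27me3 is the mark of Polycomb repression, and starts rich in the dinucleotide CpG tend to carry either or both.

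The bases before the start of members that differed in CpG content and in both marks are shown first, to be read beside the occupancies given below. Each sequence holds the 250 bases before the RefSeq start (RefSeq promoter table of GRCm38.p6, found unchanged in mm9), is written from 5′ to 3′ on the strand of the gene, and has every CpG in capitals. Il28ra, the receptor of the lambda interferons, had the highest mean H3K27me3 of all members and held 14 CpG (chr4:135242122-135242371, plus strand). Cxcl14, a chemokine made by many epithelia, had high H3K27me3 too and held 16 (chr13:56397913-56398162, minus strand). Cxcr4, with the highest H3K4me2, held 19 (chr1:130488877-130489126, minus strand). Il6st, the signalling chain shared by receptors of the interleukin 6 family, had H3K4me2 but no H3K27me3 above background and held 26 (chr13:113254028-113254277, plus strand). Il6, a ligand of that chain, and Ccr2, a receptor of monocytes, had little H3K4me2 and no H3K27me3 above background. They held 3 (chr5:30339404-30339653, plus strand) and 1 (chr9:124016672-124016921, plus strand).
Il28ra: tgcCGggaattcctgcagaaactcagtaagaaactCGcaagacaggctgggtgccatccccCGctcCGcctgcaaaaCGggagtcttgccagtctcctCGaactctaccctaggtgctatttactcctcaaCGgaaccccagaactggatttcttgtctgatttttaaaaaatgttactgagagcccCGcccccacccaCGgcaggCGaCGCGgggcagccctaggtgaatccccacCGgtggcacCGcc
Cxcl14: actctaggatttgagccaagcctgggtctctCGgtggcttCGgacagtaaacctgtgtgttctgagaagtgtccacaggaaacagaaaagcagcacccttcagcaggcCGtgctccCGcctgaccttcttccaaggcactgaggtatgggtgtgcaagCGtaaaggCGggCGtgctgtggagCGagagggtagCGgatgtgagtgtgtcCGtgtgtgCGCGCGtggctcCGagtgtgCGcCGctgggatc
Cxcr4: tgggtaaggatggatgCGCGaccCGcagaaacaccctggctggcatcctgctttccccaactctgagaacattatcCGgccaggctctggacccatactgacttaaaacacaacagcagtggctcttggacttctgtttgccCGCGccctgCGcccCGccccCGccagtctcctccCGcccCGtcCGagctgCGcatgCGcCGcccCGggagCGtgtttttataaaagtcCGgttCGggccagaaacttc
Il6st: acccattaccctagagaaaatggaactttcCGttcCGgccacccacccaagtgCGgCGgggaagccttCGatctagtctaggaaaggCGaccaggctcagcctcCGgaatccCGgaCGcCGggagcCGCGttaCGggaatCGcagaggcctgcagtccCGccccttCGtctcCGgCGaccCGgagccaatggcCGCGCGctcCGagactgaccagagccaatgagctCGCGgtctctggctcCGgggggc
Il6: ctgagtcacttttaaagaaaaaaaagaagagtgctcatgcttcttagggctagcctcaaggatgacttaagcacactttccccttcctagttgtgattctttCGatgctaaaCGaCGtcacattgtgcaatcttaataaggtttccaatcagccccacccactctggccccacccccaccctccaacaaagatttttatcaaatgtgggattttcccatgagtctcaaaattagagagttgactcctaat
Ccr2: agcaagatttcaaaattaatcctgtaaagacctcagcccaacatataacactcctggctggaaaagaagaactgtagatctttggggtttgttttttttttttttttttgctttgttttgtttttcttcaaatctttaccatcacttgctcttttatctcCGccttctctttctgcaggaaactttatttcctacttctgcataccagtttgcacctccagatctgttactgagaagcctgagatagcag

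Values are normalized occupancies, that is, reads within 2.5 kb of a start scaled by the authors to how many reads each library had mapped and given without decimals. Olfactory receptor genes, which sensory neurons of the nose use, gave the background. An occupancy was called above background where it exceeded the 95th percentile of 1047 olfactory receptor symbols in the same library. For H3K4me2 this level was 4, 8, 1 and 7, and for H3K27me3 it was 21, 22, 22.7 and 29. The H3K4me2 levels are low, and many members were only just above them.

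Most members had little H3K4me2. Above background were 73, 57, 52 and 53 of the 136. These are 53.7%, 41.9%, 38.2% and 39.0%, against 77.2%, 72.0%, 72.1% and 70.9% of all symbols. The members' median H3K4me2 occupancy was 5, 7, 1 and 5 at the successive stages, where that of all symbols was 41, 27, 24 and 42. Only 28, 24, 17 and 23 members reached an occupancy of 20, against 13035, 12083, 11142 and 12372 of the 20045 symbols.

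H3K27me3 was above background at 43, 43, 51 and 41 members, or 31.6%, 31.6%, 37.5% and 30.1%. The shares of all symbols were 24.3%, 24.8%, 24.3% and 19.3%. The members' median H3K27me3 occupancy was 15, 15.5, 17 and 21, where that of all symbols was 11, 10, 9 and 10. At E17.5, 37 members had both marks, 36 had H3K4me2 only, 6 had H3K27me3 only and 57 had neither. In percent these are 27.2, 26.5, 4.41 and 41.9, against 22.1, 55.2, 2.27 and 20.5 of all symbols. At PN15 the members' counts were 27, 26, 14 and 69 (19.9%, 19.1%, 10.3% and 50.7%), against 15.2%, 55.7%, 4.07% and 25.0% of all symbols. With a fixed occupancy of 20 as the level, members with neither mark fell from 83 at E17.5 to 55 at PN15, the opposite direction. These are 61.0% and 40.4%, against 27.3% and 24.8% of all symbols. At PN1 and PN7, H3K27me3 only was found at 11 and 19 members (8.09% and 14.0%), against 3.88% and 3.30% of all symbols. The group thus held more starts with neither mark and fewer with H3K4me2 alone than the table as a whole at both ends of the course.

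**Figure D1:**
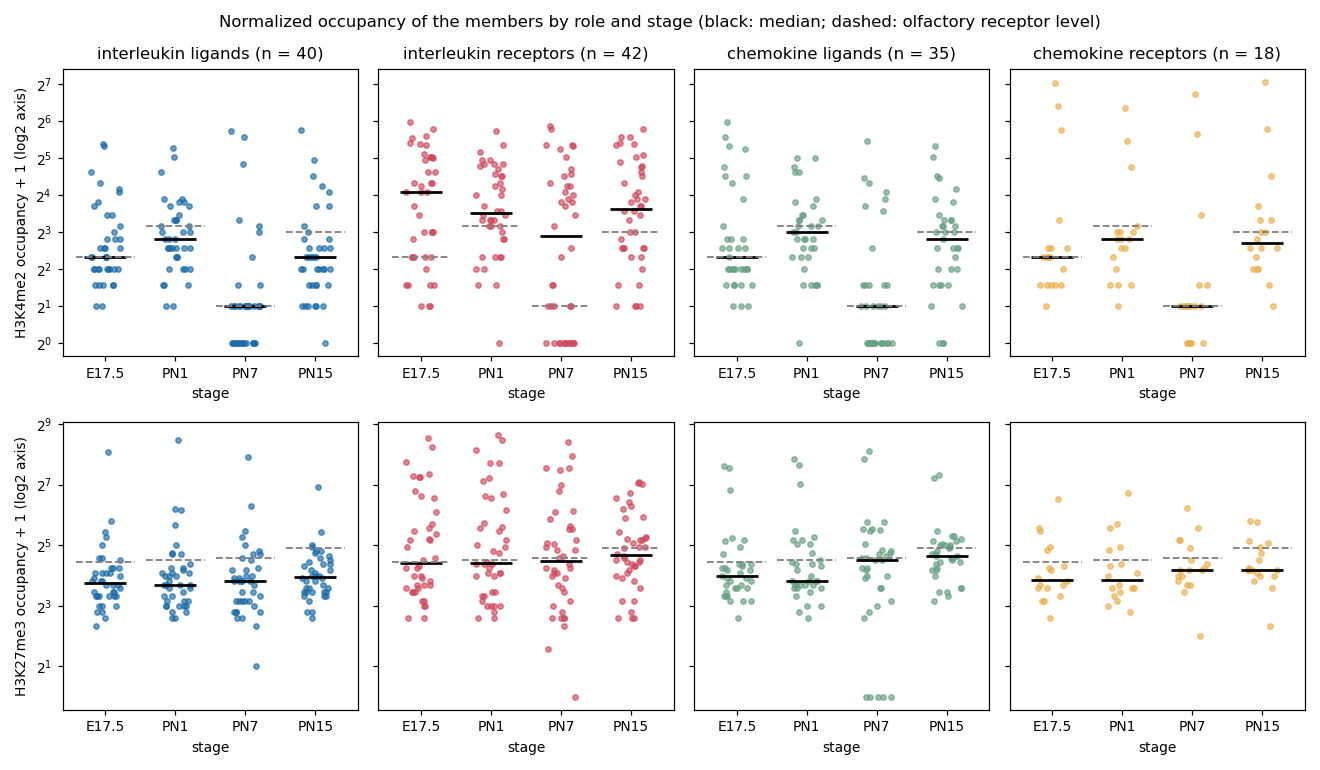
Normalized occupancy plus 1 (log2 axis) of H3K4me2 (upper row) and H3K27me3 (lower row) for each member by stage, in panels by role. Black lines are medians and dashed lines the olfactory receptor level of the library. Interleukin receptors have their H3K4me2 median above the dashed line at every stage, and the other roles do not.

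Interleukin receptors carried the marks more often than interleukin ligands. Of 42 interleukin receptors, 29, 27, 25 and 25 were above background in H3K4me2 (69.0%, 64.3%, 59.5% and 59.5%, below the shares of all symbols given above), and 21, 20, 21 and 19 in H3K27me3 (at least 45.2%, above them). Of 40 interleukin ligands, 19, 13, 9 and 8 were above it in H3K4me2 and 8, 8, 9 and 4 in H3K27me3. The median H3K4me2 of interleukin receptors was 16, 10.5, 6.5 and 11.5, while that of interleukin ligands was 4, 6, 1 and 4. In H3K27me3 the medians were 20.5, 20.5, 21.5 and 24.5 for these receptors and 12.5, 12, 13 and 14.5 for these ligands. Among chemokines the order was not the same, with 17, 13, 13 and 14 of 35 ligands and 7, 3, 5 and 6 of 18 receptors above background in H3K4me2. The 35 chemokine ligands had a median H3K4me2 of 4, 7, 1 and 6 and the 18 chemokine receptors one of 4, 6, 1 and 5.5, and in H3K27me3 the medians were 15, 13, 22 and 24 for these ligands and 13.5, 13.5, 17 and 17 for these receptors.

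The chemokine ligands divided by family. Of the 13 CXC ligands, 9, 11, 8 and 10 were above background in H3K4me2, but of the 22 CC ligands only 8, 2, 5 and 4. The CXC shares, 61.5% to 84.6%, lay on both sides of those of all symbols (70.9% to 77.2%), and the CC shares, 9.09% to 36.4%, were below them. The median H3K27me3 of CXC ligands was 30, 32, 32 and 30, and that of CC ligands 12.5 at E17.5 and 22.5 at PN15. Both families lie largely in clusters. The 11 CC ligands on chromosome 11 had E17.5 values of H3K4me2 between 1 and 5, and PN15 values between 0 and 9. The 9 CXC ligands on chromosome 5 spread more widely, with 2 to 37 and 0 to 17 at these stages. On chromosome 9 the 8 CC receptors, among them Ccr2, had H3K27me3 of at most 22 in every library, and no library had any of them above its H3K27me3 level.

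Some interleukin receptors had H3K4me2 above background and H3K27me3 below it throughout. Il6st had H3K4me2 of 55, 40, 39 and 55 and H3K27me3 of 8, 10, 6 and 5. Il1rap, the accessory chain of the interleukin 1 receptor, had H3K4me2 of 41, 30, 37 and 47 and H3K27me3 of 11, 15, 18 and 15. The same held for Il3ra, Il11ra1 and Il12rb1, and for the ligands Il15, Ccl27a, Cxcl1 and Cxcl3, which makes 9 members in all (6.62%, against 44.3% of all symbols). Il15, a growth factor of lymphocytes, had H3K4me2 of 41, 38, 28 and 22 and H3K27me3 of 13, 16, 17 and 14.

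A larger number, 21 members (15.4%, against 12.1% of all symbols), had both marks above background at all 4 stages, and 11 of these were interleukin receptors. Il15ra, which presents Il15 to neighbouring cells, had H3K4me2 of 62, 35, 58 and 42 and H3K27me3 of 93, 102, 69 and 60. Il4ra, a chain of the receptors of Il4 and Il13, had H3K4me2 of 48, 52, 32 and 32 and H3K27me3 of 23, 30, 28 and 30, just over its background. Il17rd, an inhibitor of fibroblast growth factor signalling named for its likeness to the Il17 receptors, had H3K4me2 of 46, 30, 55 and 47. Its H3K27me3 was 43, 52, 32 and 29, the last value being at the level and not above it, so it was not among the 21. For these receptors the occupancies of the 2 marks were closer than for the genes described next. The background differs between the marks (at E17.5, 4 in H3K4me2 and 21 in H3K27me3), so their occupancies are not on the same scale.

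Il28ra, Il27ra, Il17ra, Il6ra and Il11 were also among the 21 members with both marks throughout, with H3K27me3 occupancies far above those of H3K4me2. Il28ra had H3K27me3 of 374, 397, 338 and 131, with H3K4me2 of 42, 27, 19 and 29. Il27ra had H3K27me3 of 305, 352, 245 and 128, with H3K4me2 of 24, 10, 10 and 14. Il17ra, the common chain for Il17 cytokines, had H3K27me3 of 213, 280, 188 and 93, with H3K4me2 of 19, 15, 23 and 24. All 3 were lowest in H3K27me3 at PN15. Il6ra, the ligand-binding partner of Il6st, had H3K27me3 of 163, 207, 188 and 135, with H3K4me2 of 32, 22, 25 and 26, so the 2 chains of this receptor differed in H3K27me3 in every library. The ligand Il11, which also signals through Il6st, had H3K27me3 of 271, 357, 240 and 120, with H3K4me2 of 16, 12, 8 and 12. The start used here for Il11 lay 83 bp from that of Tmem190, and that of Il27ra 2404 bp from that of Rln3, so these windows take in more than 1 gene.

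**Figure D2:**
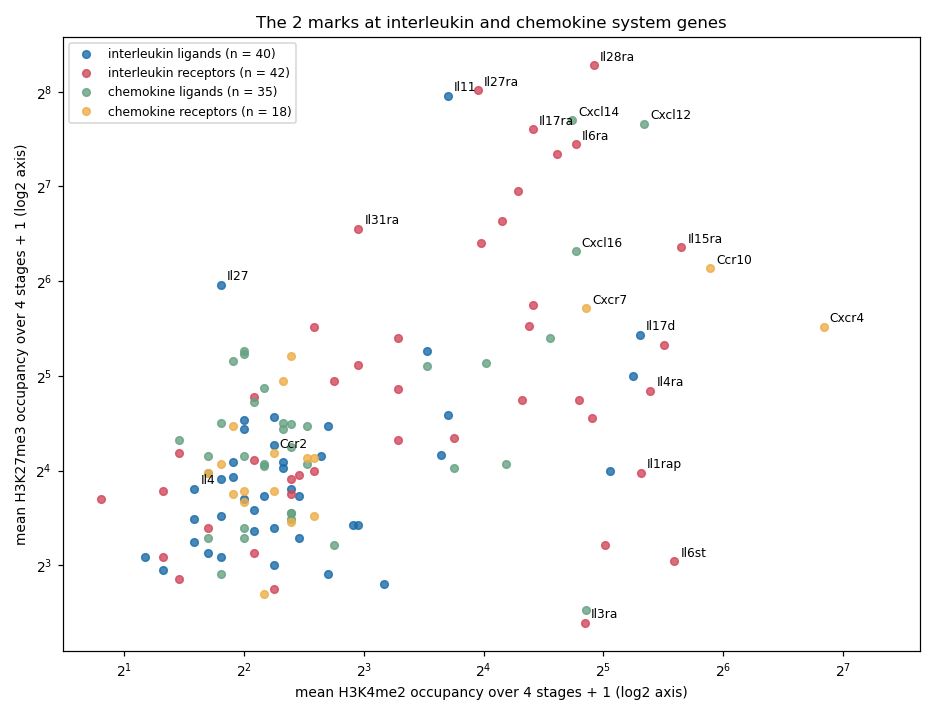
Mean H3K4me2 (x) and mean H3K27me3 (y) occupancy over the 4 stages, each plus 1 on a log2 axis, 1 point for each of 135 ligands and receptors, coloured by role. Cxcr4 lies farthest to the right (113.5), Il28ra at the top (310.0), and Il6st and Il3ra have H3K4me2 with low H3K27me3 (7.25 and 4.25).

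Of the 40 interleukin ligands, 18, 24, 26 and 30 had neither mark, that is, 45.0% at E17.5 and 75.0% at PN15, against 20.5% and 25.0% of all symbols. This rise rests on the level set in each library, since with a fixed occupancy of 20 the counts were 31, 30, 29 and 25. These are 77.5% at E17.5 and 62.5% at PN15, against 27.3% and 24.8% of all symbols. Il4 had H3K4me2 of 3, 2, 1 and 2 and H3K27me3 of 12, 18, 10 and 12. Il6 had 4, 9, 1 and 2 and 16, 12, 13 and 23, and Il1b 2, 3, 1 and 5 and 16, 15, 14 and 19. The H3K4me2 of Il6 at PN1 was 1 above the level, and Il4 and Il1b were above it nowhere. Il18 had H3K4me2 of 6, 4, 1 and 2, Il33 of 7, 13, 1 and 5 and Il34 of 3, 10, 1 and 3. These alarm and growth cytokines of epithelia, glia and neurons were therefore above background in H3K4me2 at E17.5 (Il18), at E17.5 and PN1 (Il33) or at PN1 (Il34), with H3K27me3 between 8 and 20. In all, 33 members were never above background in either mark (24.3%, against 16.9% of all symbols), 12 of them interleukin ligands.

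Other interleukin ligands had more of one or both marks. Il7, a survival factor of lymphocytes, had H3K4me2 of 39, 32, 47 and 30 with H3K27me3 of 31, 25, 38 and 30, so that both marks were present throughout. Il17d, a ligand of the Il17 family, had H3K4me2 of 24, 24, 52 and 54 and H3K27me3 of 38, 72, 43 and 16. Il13 had H3K4me2 of 19, 12, 9 and 2 and H3K27me3 of 42, 50, 31 and 26, and at PN15 both were below background. Il27, a ligand of Il27ra, had H3K27me3 of 55, 70, 78 and 42 with H3K4me2 of 2, 6, 1 and 1. Only Il27, Cxcr3 and Il21r had H3K27me3 above background at all 4 stages and H3K4me2 at none.

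The chemokine system held the member with the most H3K4me2. Cxcr4 had H3K4me2 of 131, 82, 107 and 134 and H3K27me3 of 43, 46, 35 and 55, both above background throughout. Its ligand Cxcl12 had H3K4me2 of 62, 31, 43 and 22 and H3K27me3 of 197, 229, 230 and 149. Cxcr7, which binds and removes Cxcl12, had H3K4me2 of 54, 26, 10 and 22 and H3K27me3 of 28, 51, 74 and 53. Thus the genes of this axis had both marks at all 4 stages, with H3K4me2 the higher at Cxcr4 and H3K27me3 the higher at Cxcl12.

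Cxcl14 had H3K4me2 of 39, 24, 19 and 21 and H3K27me3 of 188, 201, 278 and 159. Cxcl16, a membrane-bound chemokine that also takes up oxidized lipids, had H3K4me2 of 26, 26, 21 and 32 and H3K27me3 of 112, 129, 43 and 31. The start used for Cxcl16 lay 551 bp from that of Zmynd15. Cxcl2, which attracts neutrophils, had H3K4me2 of 37, 31, 14 and 8 and H3K27me3 of 35, 38, 53 and 39. Ccr10, the receptor of Ccl27a, was second to Cxcr4 among chemokine receptors in mean H3K4me2 and the highest of them in mean H3K27me3. It had H3K4me2 of 85, 43, 50 and 55 and H3K27me3 of 92, 105, 47 and 33. Cxcr3, a receptor of T cells, had H3K27me3 of 47, 28, 35 and 34 with H3K4me2 of 4, 6, 1 and 6.

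Of the chemokine genes known from monocytes and microglia, Ccl2, Ccr2 and Ccr1 had little H3K4me2. Ccl2 had H3K4me2 of 2, 7, 1 and 7 and H3K27me3 of 9, 20, 23 and 20, and passed the H3K27me3 level at PN7 only. Its receptor Ccr2 had 2, 5, 1 and 7 and 18, 12, 17 and 22. Ccr1 had 4, 7, 0 and 9 and 5, 10, 12 and 15, and passed the H3K4me2 level at PN15 only. Other CC ligands had more H3K27me3, such as Ccl3, Ccl4 and Ccl6 with 31, 36 and 34 at PN15, above the level of 29. The 12 markers of microglia and macrophages had a median H3K4me2 of 3.5, 4, 1 and 3.5, a summed H3K4me2 of 104, 65, 48 and 76, and 5, 2, 4 and 3 genes above background. Cd14 alone gave 46, 23, 32 and 30 of this sum. Ptprc, present on all leukocytes, had 2, 2, 1 and 3. Of 8 lymphocyte markers 6, 4, 3 and 2 were above it, and of 5 endothelial markers 3, 4, 3 and 2. Of all symbols 77.2%, 72.0%, 72.1% and 70.9% were above it. In H3K27me3, Cd14, Tmem119, Tyrobp and Itgam of the microglia and macrophage markers were above background at every stage. The part of the number of such cells in the members' occupancy was not tested.

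**Figure D3:**
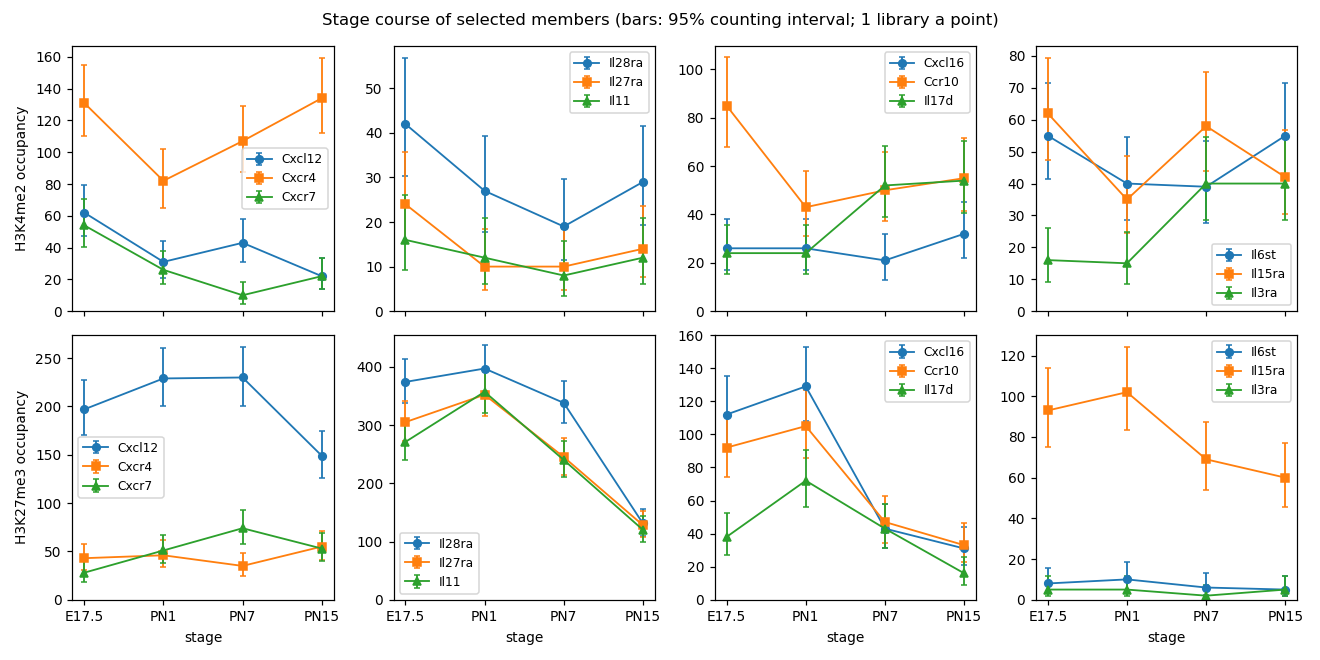
Occupancy (linear axes from 0) of H3K4me2 (upper row) and H3K27me3 (lower row) at the 4 stages for 12 members, 1 library a point, with exact Poisson 95% intervals for counting error. Cxcl12 and Cxcr7 have less H3K4me2 at PN15 than at E17.5, Il3ra and Il17d more, and Il28ra, Il27ra, Il11, Cxcl16 and Ccr10 have less H3K27me3.

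For the comparison of E17.5 with PN15, a member was called where its log2 change (pseudocount 1), less the median over all symbols, was at least 1 in size and the larger occupancy was at least 20. Counting intervals are exact Poisson 95% intervals that treat an occupancy as that many reads. They cover counting error only, and are at least as wide as it because every whole number up to 109 occurs in each library. In H3K4me2, 2 members were higher at PN15 (1.47%, against 1.99% of all symbols) and 7 lower (5.15%, against 5.35%). An occupancy of 20 was reached by 31 of the 136 members and by 13303 of the 20045 symbols. Of these, a denominator taken up after the values were seen, the shares were 6.45% against 3.0% higher and 22.6% against 8.06% lower. How the members compare with all symbols thus depends on the denominator, and since a gene can reach 20 through the stage at which it is high, nothing is read from either.

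The members higher in H3K4me2 at PN15 were Il3ra and Il17d. Il3ra, a receptor chain of blood cell growth factors, had H3K4me2 of 16, 15, 40 and 40 with H3K27me3 of 5, 5, 2 and 5. Its E17.5 interval was 9.15 to 26.0 and its PN15 interval 28.6 to 54.5, and its relative log2 change was 1.14. For Il17d the intervals were 15.4 to 35.7 and 40.6 to 70.5 and the change 1.0, at the limit of the rule. With a pseudocount of 5 neither was called (0.98 and 0.90).

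The members lower in H3K4me2 at PN15 were Cxcl2, Il10ra, Cxcl12, Il1rl2, Il17rc, Cxcr7 and Il15. Cxcl2 changed most, by -2.21, where the intervals were 26.1 to 51.0 and 3.45 to 15.8. Il10ra, the binding chain of the receptor for Il10, had H3K4me2 of 30, 18, 12 and 7 with H3K27me3 of 97, 93, 126 and 77, and changed by -2.09. Cxcl12 changed by -1.59 (47.5 to 79.5, then 13.8 to 33.3) and Cxcr7 by -1.39 (40.6 to 70.5, then 13.8 to 33.3). Il1rl2, a receptor for Il36 cytokines, had H3K4me2 of 40, 23, 16 and 15 with H3K27me3 of 150, 211, 179 and 106 (-1.49). Il17rc, which pairs with Il17ra, had H3K4me2 of 32, 19, 18 and 12 with H3K27me3 of 68, 70, 35 and 38 (-1.48). Both were above the H3K27me3 background throughout. Il15 was at the limit with -1.0, its intervals overlapped (29.4 to 55.6 and 13.8 to 33.3), and after quantile normalization its change was -0.67.

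In H3K27me3, 11 members were higher at PN15 (8.09%, against 4.52% of all symbols), and 9 of the 11 were CC ligands: Ccl26, Ccl3, Ccl21b, Ccl21c, Ccl1, Ccl6, Ccl17, Ccl2 and Ccl8. The others were Il9 and Il2rb. Of the 76 members and 6707 symbols that reached 20, 14.5% and 13.5% were higher. These were changes between low values. Ccl26 had H3K27me3 of 9, 11, 15 and 27 (relative log2 change 1.49), Ccl3 of 11, 12, 22 and 31 (1.42) and Ccl1 of 17, 32, 54 and 43 (1.29). Their intervals did not overlap between E17.5 and PN15, with 4.12 to 17.1 and 17.8 to 39.3 for Ccl26 and 9.90 to 27.2 and 31.1 to 57.9 for Ccl1, and those of Ccl6 only just did not. The intervals of the other 7 (Ccl17, Ccl2, Ccl21b, Ccl21c, Ccl8, Il2rb and Il9) overlapped. With a pseudocount of 5, Ccl17, Ccl2, Ccl8 and Il2rb were no longer called (0.95, 0.84, 0.86 and 0.90), and after quantile normalization Ccl2 (1.11) fell short of the minimum of 20. The background was also higher at PN15: the median of the olfactory receptors was 7 at E17.5 and 10 at PN15, and only Ccl1, Ccl3, Ccl6 and Il9 of these 11 were above the PN15 level of 29. The median relative change was 0.43 over the 35 chemokine ligands and 0.19 over all members.

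Ccl21b and Ccl21c were among the 11, with H3K27me3 of 8, 12, 0 and 23 and of 8, 12, 0 and 21. They are near-identical copies of each other, and with the mean over entries in place of the largest entry their changes were 0.66 and 0.62. Of the members, Ccl19, Ccl21a, Ccl21b, Ccl21c and Il11ra2, all on chromosome 4, had 50% or more of the 5 kb window repeated elsewhere in the genome with an identity of 98% or more. All had an occupancy of 0 in both PN7 libraries. Over all 360 windows with such a copy, the H3K27me3 occupancy was 0 or 1 at 320 in the PN7 library, but at 6, 6 and 2 in those of E17.5, PN1 and PN15. The cause was not tested. Ccl27a, without such a copy by this rule, had H3K4me2 of 47, 24, 2 and 39 and H3K27me3 of 5, 5, 0 and 9.

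Lower in H3K27me3 at PN15 were 9 members (6.62%, against 8.96% of all symbols): Cxcl16, Il23a, Il28ra, Ccr10, Il27ra, Il17d, Il17ra, Il11 and Il31ra. Among those that reached 20 the shares were 11.8% and 26.8%. Cxcl16 changed by -1.82, with intervals of 92.2 to 135 and 21.1 to 44.0, and Ccr10 by -1.45, with 74.2 to 113 and 22.7 to 46.3. In both the lower values were already present at PN7 (43 and 47). Il23a, a subunit of a cytokine that sustains Th17 cells, had H3K27me3 of 23, 26, 13 and 6, with H3K4me2 of 10, 14, 4 and 18 (-1.78). Il17d was the only member called in both marks, higher in H3K4me2 and lower in H3K27me3 (-1.20).

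The calls of the other 5 of these 9 members depended on the scaling. Il28ra changed by -1.51, Il27ra by -1.25, Il17ra by -1.19, Il11 by -1.17 and Il31ra by -1.10. The highest H3K27me3 of any symbol was 809 at E17.5 and 416 at PN15. When the 4 libraries were quantile-normalized the changes were -0.38, -0.11, -0.31, -0.07 and -0.49, none of them called, while Cxcl16 (-1.69), Ccr10 (-1.33), Il17d (-1.36) and Il23a (-1.89) still were. Cxcl14, Cxcl12 and Il6ra, also high in H3K27me3, were not called (-0.24, -0.40 and -0.27). Il31ra also stood apart at PN7, with H3K27me3 of 155, 137, 7 and 72.

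**Figure D4:**
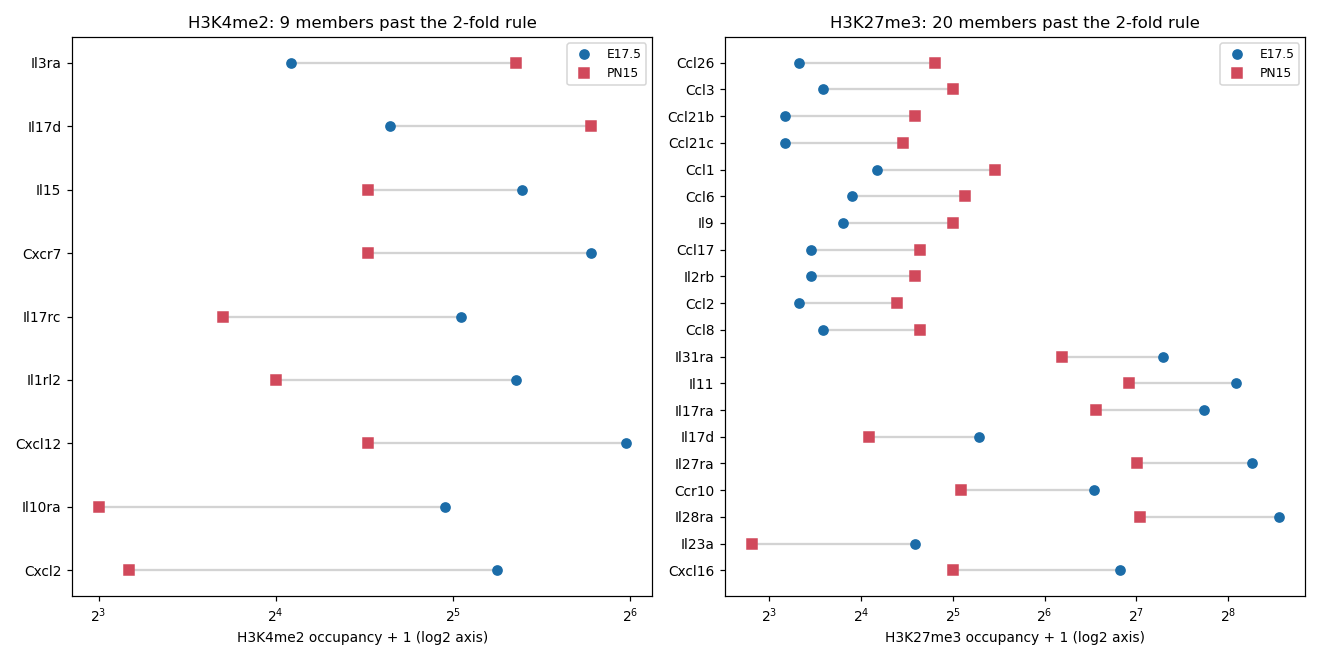
Occupancy plus 1 (log2 axis) at E17.5 (circles) and PN15 (squares) of the members past the 2-fold rule, for H3K4me2 (9 members) and H3K27me3 (20 members), ordered by change. In H3K27me3 the members that were higher at PN15 are CC ligands apart from Il9 and Il2rb, and they started from at most 17 at E17.5. Those that were lower started from at least 23, where the rule itself requires a start of at least 20.

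Between neighbouring stages most calls were in the steps to and from PN7. From E17.5 to PN1 no member was called in H3K4me2 (0.234% of all symbols were higher and 0.449% lower), and in H3K27me3 Ccl2 was higher and Il2rg, the common chain of the interleukin 2 receptor family, lower (0.898% and 0.284% of all symbols). From PN1 to PN7, H3K4me2 was relatively higher at Il10rb, Il15ra, Il17d, Il17ra, Il17rd, Il3ra and Il7 and lower at Ccl27a and Il1rapl2. These are 5.15% and 1.47% of the members, against 13.1% and 2.11% of all symbols, but 25.9% and 7.41% of the 27 members that reached 20, against 20.9% and 3.36% of 12577 symbols. From PN7 to PN15 it was lower at 8 members (5.88%, against 10.7%), namely Cxcl12, Il4ra, Il10rb, Il15, Il15ra, Il17rd, Il3ra and Il7, and higher at Ccl27a (0.735%, against 3.65%). Of the 23 members that reached 20 these are 34.8% and 4.35%, against 16.9% and 5.77% of 12694 symbols, so the order of members and symbols turned with the denominator for the higher calls at PN7, the lower calls at PN7 and the lower calls at PN15. Both steps share the PN7 library, and the median of all symbols moved by -0.50 and then by 1.0, so that Il3ra and Il4ra counted as lower in the last step with occupancies of 40 and 32 at both stages. Without centring on the median, Cxcr7 and Il27ra were lower in the step to PN1 (4.63% of all symbols), and 3 members were higher in the step to PN7 (Il10rb, Il17d and Il3ra) and 4 lower (Ccl27a, Cxcl2, Cxcr7 and Il1rapl2), against 3.89% and 6.43% of all symbols. In the step to PN15 it was then 3 higher (Ccl27a, Cxcr7 and Il1r2) and 0 lower, against 26.6% and 1.15%, so none of the 8 lower calls stood on the occupancies themselves.

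H3K27me3 changed at fewer members in the step to PN7. Ccl12, Il10 and Il2rg were higher and Cxcl16, Il11ra2 and Il31ra lower (2.21% each, against 2.52% and 2.40% of all symbols). Without centring on the median, Ccl12 was no longer called and Ccr10 was lower too. The shares were then 1.47% higher and 2.94% lower, against 1.92% and 3.32% of all symbols. From PN7 to PN15, 8 members were higher (5.88%, against 2.69%) and Il17d, Il17ra and Il28ra lower (2.21%, against 5.82%). Of those that reached 20, the shares in the step to PN7 were 4.69% each, against 7.95% and 7.58%, and in the step to PN15 10.4% and 3.9%, against 8.36% and 18.1%. The lower call of Il11ra2 in the step to PN7 and, of those 8, the calls of Ccl21b, Ccl21c and Il11ra2 rest on the 0 of these copied genes at PN7. The others were Cxcl13, Cxcl3, Il28b, Il31ra and Il34.

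Ligands and receptors that bind each other were set side by side in 30 pairs taken from general knowledge, in which some genes occur more than once. At E17.5, H3K4me2 was above background at both genes in 7 pairs, at the receptor only in 14, at the ligand only in 7 and at neither in 2. At PN15 the counts were 7, 11, 3 and 9. These counts depend on the H3K4me2 level, which was 4 at E17.5 and 7 at PN15. Ccr6 and Cxcr5, for example, had H3K4me2 of 5 at both stages and were above the level at E17.5 only. Mean H3K4me2 over the stages was higher at the receptor in 21 of 30 pairs, and mean H3K27me3 in 17. For H3K4me2 the higher receptors were mainly in interleukin pairs, and chemokine pairs were mixed. Some differences lay near the floor, such as Ccl19 with Ccr7 (2.5 and 2.75) and Ccl25 with Ccr9 (2.25 and 3.0). Il6 with Il6st (means of 4.0 and 47.25), Il4 with Il4ra (2.0 and 41.0) and Il3 with Il3ra (2.0 and 27.75) were pairs with the H3K4me2 on the receptor. The opposite order was found for Il7 with Il7r (37.0 and 1.5), Cxcl2 with Cxcr2 (22.5 and 3.0) and Cxcl16 with Cxcr6 (26.25 and 3.5), whose receptors are best known from leukocytes.

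CpG content at the start also differed between the roles. The ratio of observed to expected CpG within 500 bp of the start had a median of 0.218 over the members, against 0.609 over the 19477 symbols with a start in mm9 and 0.136 over olfactory receptors. It was 0.325 for interleukin receptors, 0.199 for interleukin ligands, 0.401 for CXC ligands, 0.174 for CC ligands and 0.174 for chemokine receptors. A ratio of at least 0.6 was found at 15 of the 136 members, against 50.9% of symbols, and 9 of the 15 were interleukin receptors. Of the 15, 14 had H3K4me2 above background at all 4 stages and 9 had H3K27me3 so, against 23 and 21 of the other 121. The exception was Ccl25, with a ratio of 1.08 and H3K4me2 of 5, 0, 2 and 2. Its start lay 110 bp from that of Elavl1, and the start that the authors used may lie elsewhere, since their table gives none.

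Across the 136 members Spearman's rank correlation with the CpG ratio was 0.60 for mean H3K4me2 and 0.37 for mean H3K27me3, and across all symbols 0.75 and -0.06. These describe genes within the same libraries, which are not independent of each other, and the starts come from an annotation other than that of the authors. Il11 combined a ratio of 0.099 with H3K27me3 of 271 at E17.5.

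**Figure D5:**
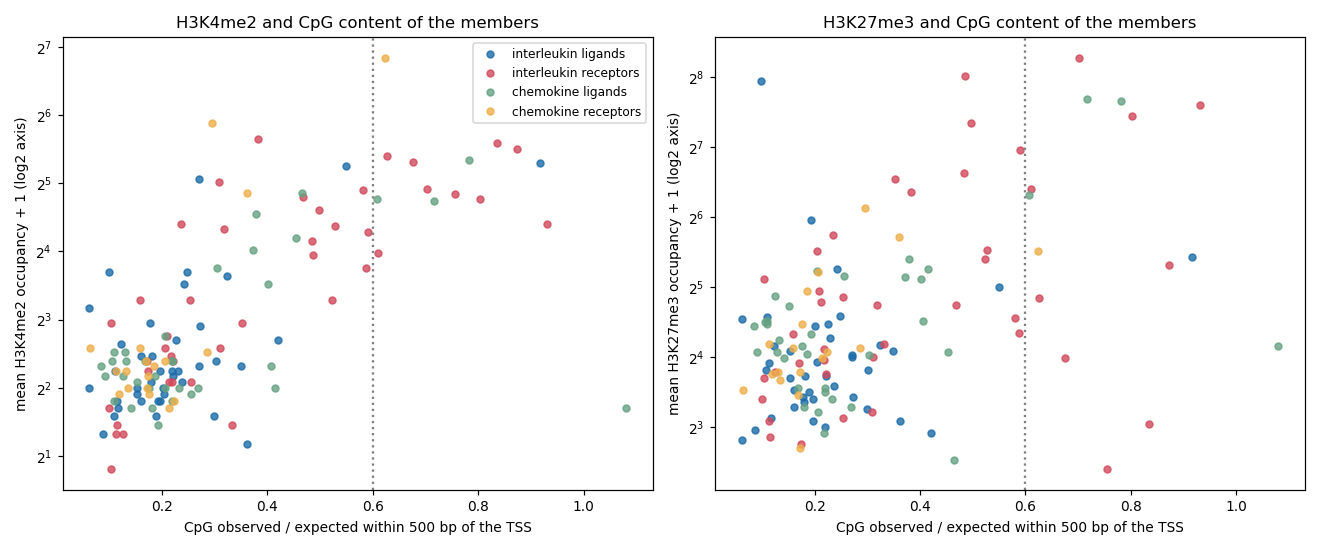
Ratio of observed to expected CpG within 500 bp of the start (x) against mean occupancy over the 4 stages plus 1 (y, log2 axis), for H3K4me2 (left) and H3K27me3 (right), 1 point a member, coloured by role. The dotted line is a ratio of 0.6, and 14 of the 15 members to its right have H3K4me2 above background at every stage.

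The genes that work with these receptors inside the cell carried more H3K4me2 than the members. Of 15 genes of the Janus kinase and STAT pathway, 15, 15, 14 and 14 were above background, with a median of 43, 38, 39 and 58, where 77.2%, 72.0%, 72.1% and 70.9% of all symbols were above it. Jak2 had H3K4me2 of 106, 79, 57 and 130 and Stat3, the main transducer of Il6st, 49, 41, 34 and 62. Jak3, the kinase of the common chain Il2rg, had H3K27me3 of 410, 515, 261 and 103. All 14 genes of interleukin 1 receptor signalling were above background in H3K4me2 in the 4 libraries (medians 56, 38, 36.5 and 58), for example the adaptor Myd88 with 74, 48, 58 and 102. From E17.5 to PN15, 1 gene of the first list and 0 of the second were higher in H3K4me2 and 0 of either lower (1.99% and 5.35% of all symbols). In H3K27me3, 4 of the first and 1 of the second were higher and 5 and 2 lower (4.52% and 8.96% of all symbols). Of 18 relatives of the members outside the naming rule, such as Cx3cl1, Lif and Lifr, 12, 10, 11 and 9 had H3K4me2 above background. From E17.5 to PN15, 0 of these relatives were higher and 2 lower in H3K4me2, and 1 higher and 1 lower in H3K27me3. Lifr, a partner of Il6st, had H3K4me2 of 81, 61, 67 and 154, and its ligand Lif had H3K27me3 of 237, 271, 201 and 91.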

How the data were processed

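ChIP-Seq for H3K4me2 and H3K27me3 was done on retinas at 4 stages, with 1 library for each mark and stage. Reads were aligned to mm9 with Bowtie 0.12.4 per the labels, and midpoints within 2.5 kb of RefSeq starts were summed. Deposited are scores: the authors scaled each sum by the total of mapped reads and rounded it. They are not counts, the table gives no depth, and its values sum to between 590366 and 1200594 a library.

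The members and lists were chosen with earlier results of these data known. Described are the 4 members of each role highest in either mark, those called from E17.5 to PN15 (at most 10 a mark, the largest) and a list fixed for their biology, of which 1 member is not reported here. Other members named for counts were chosen after their values were seen. The level, the 2-fold rule and its minimum of 20 stand in for tests. Alternatives were other levels, pseudocounts, minimums, scalings and entries, and, added after seeing the data, shares among genes that reached 20. Another left out 7 members: those with a near-identical copy, Ccl27a and Il11ra1. It kept members such as Il11 and Il27ra, whose windows take in the start of another gene.

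Starts were RefSeq promoters of GRCm38.p6 found unchanged in mm9 within 200 kb of the gene (102 of 136 members), otherwise GENCODE vM1 starts. Copies were found with minimap2 2.31-r1302. Python 3.11.15, pandas 2.3.3, scipy 1.17.1, pysam 0.24.0 and matplotlib 3.10.9 were used.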

Additional observations from a re-analysis of the deposited data

How the results depend on the processing

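With 1 library for each mark and stage, no value here has a replicate error, and the depth behind an occupancy is unknown. None of the 29 changes called from E17.5 to PN15 turned its sign under the alternatives run. With a fixed occupancy of 20 as the level, members that reached it in H3K4me2 numbered 28, 24, 17 and 23 from E17.5 to PN15. In H3K27me3 at PN15 they numbered 74, against 5612 of the 20045 symbols. With the 99th percentile of olfactory receptors, H3K27me3 was above it at 24, 26 and 18 members from PN1 to PN15. With the fixed occupancy, both marks, H3K4me2 only and H3K27me3 only were found at 21, 7 and 25 members at E17.5 and at 16, 7 and 58 at PN15, so that members with neither went from 83 to 55, against 57 to 69 with the level of each library, and with the 99th percentile 15 members had both and 3 had H3K27me3 only at PN15. From E17.5 to PN15, members higher in H3K4me2 numbered 0 with a pseudocount of 5, 6 with a minimum of 10 and 21 with no minimum, and members lower numbered 12 and 31 with these minimums. Members higher in H3K27me3 numbered 7 with a pseudocount of 5 and 17 with either minimum, and members lower numbered 4 after quantile normalization. The cause was not tested. Of 174 values of single genes under an alternative, 17 no longer met the rule. A minimum of 10 and no minimum, with 29 of these values each, could neither end a call nor turn its sign. Leaving out the centring could do neither in H3K27me3, where the median over all symbols was 0.0. Medians of ligands and receptors moved by at most 1 without Ccl19, Ccl21a, Ccl21b, Ccl21c, Il11ra2, Ccl27a and Il11ra1. No paired analysis was possible because no condition has a second library and the labels give no replicate numbers.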
